A study of Homo sapiens with 8 samples.

Results

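The 91003 exon and junction probe sets of human chromosome 1 were examined on Affymetrix Human Transcriptome Arrays of A375, a melanoma cell line. A probe set is a small group of probes that reads 1 exon or 1 exon-exon junction of a transcript. All rows of the deposited values whose ID carries the chromosome 1 prefix were taken, 57185 for exons and 33818 for junctions, out of 914585 rows in all. Chromosome 1 was chosen by the measured values themselves, since an earlier fit of the same arrays had given it a lower signal in shPLK1. The contrast of shPLK1 with shNS on chromosome 1 is therefore described below and was not tested.

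The A375 shPLK1 cells carry an inducible lentiviral (TRIPZ) shRNA against PLK1, a mitotic kinase, and the A375 shNS cells carry the matching nonsense shRNA. Both were treated with doxycycline for 48 h, and each group is represented by 4 arrays, while the Methods give 3 replicates per line without naming them. The Methods describe A375 lines of this kind as polyclonal pools under puromycin selection and do not say whether the earlier-made cells on the arrays were those pools, and the labels list several PLK1 shRNA clones without saying which was used. Cell line and shRNA cannot be told apart in this design, and the sources used here name no batch.

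Chromosome 1 is the longest human chromosome and holds genes of many unrelated functions on a short and a long arm. An exon array measures RNA only, so a difference in signal over many neighbouring genes is a difference in RNA, and the DNA of the cells was not measured here. On this chromosome lie members of the S100 family of small calcium-binding proteins, PTGS2, the inducible cyclooxygenase of prostaglandin synthesis, NES, the intermediate filament nestin of neural progenitors, and EPHA2, an ephrin receptor. Probe sets carry no gene names in the files, and gene names come from the transcript clusters that the authors listed as changed, 46 of which have chromosome 1 IDs. A transcript cluster gathers all probe sets of 1 transcribed locus.

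To show the start sites behind the largest listed differences, promoters are printed for the protein-coding genes with the 2 lowest and the 2 highest differences among clusters classed as coding, PTGS2 and GNG4 (lower in shPLK1) and ARHGAP29 and IL24 (higher). GNG4 encodes a gamma subunit of heterotrimeric G proteins and IL24 a cytokine. The 300 bases of each come from RefSeq on GRCh38.p14 and run 5′ to 3′ on the strand of the gene, at chr1:186680374-186680673 (minus strand) for PTGS2, chr1:235650559-235650858 (minus) for GNG4, chr1:94247697-94247996 (minus) for ARHGAP29 and chr1:206897193-206897492 (plus) for IL24. Capitals mark matches on either strand to a TATA box (TATAAA) or a GC box (GGGCGG).
PTGS2: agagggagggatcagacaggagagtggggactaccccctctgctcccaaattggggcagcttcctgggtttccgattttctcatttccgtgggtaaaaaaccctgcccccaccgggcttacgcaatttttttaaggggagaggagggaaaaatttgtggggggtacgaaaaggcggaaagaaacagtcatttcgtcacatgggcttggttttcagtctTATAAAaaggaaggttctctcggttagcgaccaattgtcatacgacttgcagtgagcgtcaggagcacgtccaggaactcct
GNG4: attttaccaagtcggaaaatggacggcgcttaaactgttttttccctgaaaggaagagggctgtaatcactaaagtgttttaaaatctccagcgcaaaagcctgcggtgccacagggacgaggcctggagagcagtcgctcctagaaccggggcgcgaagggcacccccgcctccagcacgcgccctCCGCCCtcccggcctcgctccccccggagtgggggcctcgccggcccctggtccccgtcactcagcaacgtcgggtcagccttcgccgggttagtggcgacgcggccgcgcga
ARHGAP29: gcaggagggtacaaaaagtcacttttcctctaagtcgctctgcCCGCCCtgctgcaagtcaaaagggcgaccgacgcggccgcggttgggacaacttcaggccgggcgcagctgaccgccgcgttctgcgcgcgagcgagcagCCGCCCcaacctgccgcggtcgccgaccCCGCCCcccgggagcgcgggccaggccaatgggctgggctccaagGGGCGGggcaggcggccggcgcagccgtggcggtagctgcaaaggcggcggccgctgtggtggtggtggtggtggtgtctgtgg
IL24: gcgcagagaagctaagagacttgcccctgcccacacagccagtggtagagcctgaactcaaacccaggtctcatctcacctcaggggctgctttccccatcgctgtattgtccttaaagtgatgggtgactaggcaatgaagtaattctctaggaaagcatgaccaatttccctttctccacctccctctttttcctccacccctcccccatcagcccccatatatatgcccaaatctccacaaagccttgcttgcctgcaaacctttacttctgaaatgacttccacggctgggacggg

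The PTGS2 promoter held 1 TATA box and no GC box, the GNG4 promoter 1 GC box, the ARHGAP29 promoter 4 GC boxes and the IL24 promoter neither. Over all 35116 promoters of the same length, 11.5% held TATAAA and 15786 held GGGCGG. The letters of an AP-1 site (TGANTCA, in 7.71% of all promoters) and of a TEAD site (GGAATG, in 4928 of them) were searched too and had no match in these 4 windows. On the other strand GGGCGG reads CCGCCC. The G and C content of these promoters was 50.7% for PTGS2, 64.0% for GNG4, 72.0% for ARHGAP29 and 52.0% for IL24, beside a median of 58.7% over all promoters. These matches are descriptions of sequence and were not set against the expression values.

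To describe the chromosome as a whole, the signal of each array was taken as the median over chromosome 1 probe sets of the log2 value minus its mean over the 8 arrays. Only probe sets whose log2 signal averaged 7 or more entered, and the same median over chromosomes 1 to 22, X and Y was subtracted. Over the 17956 exon probe sets at this level, the centred signal was -0.019, -0.046, -0.033 and -0.038 in shPLK1 replicates 1 to 4. In shNS replicates 1 to 4 it was 0.023, 0.033, 0.036 and 0.039. Each shPLK1 array lay under each shNS array, and the means differed by -0.067 on the log2 scale (SE 0.007, n = 4 arrays each), which is 4.53% lower on the linear scale.

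The junction probe sets, summarised apart from the exons, gave 10631 rows at this level. Their centred signal was -0.016, -0.050, -0.047 and -0.044 in the shPLK1 arrays and 0.022, 0.039, 0.046 and 0.048 in the shNS arrays. The difference was -0.078 (SE 0.010, n = 4 each). Exon and junction probe sets of a gene read the same RNA of the same arrays, so they are not independent of each other.

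Cutting the rows along the ID number showed that the lower signal was not spread evenly over the ID range. The order of ID numbers need not be the order along the chromosome, so parts of the ID range are not places on it. Exon rows were sorted by ID number and cut into 48 runs of 1191 or 1192 rows, and the centred signal was computed for each run. A run was called low when all 4 shPLK1 arrays lay under all 4 shNS arrays and the difference was -0.10 or lower, and high with the signs turned. Of the 48 exon runs 16 were low and 0 were high, where 6.68% of 464 runs of this size over all chromosomes were low and 4.74% were high. Run differences went from -0.224 to 0.058, with 35 runs below 0 and 13 above it. Among runs with separate groups, run 8 lay just inside the limit at -0.104 and run 18 just outside it at -0.096.

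**Figure D1:**
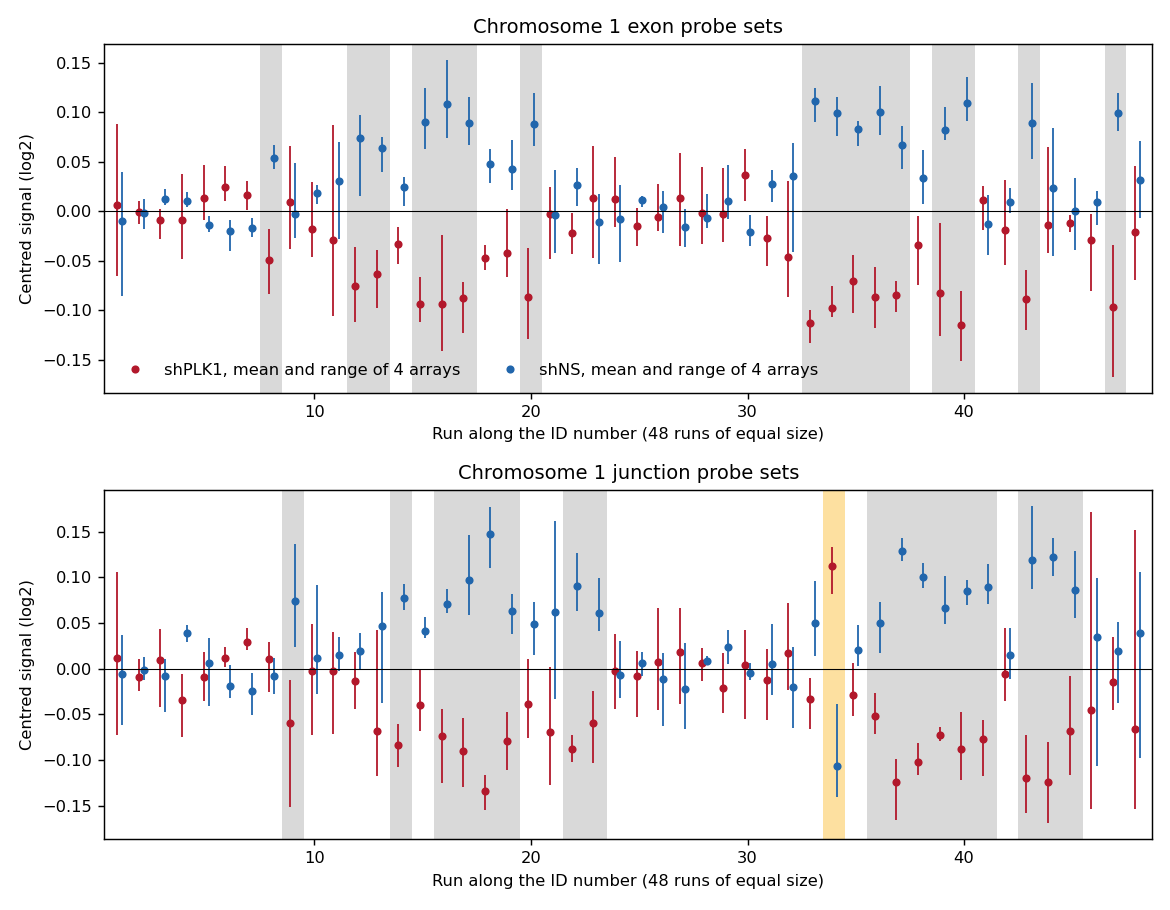
Centred log2 signal of 48 runs of equal size along the ID number, for exon (top) and junction (bottom) probe sets of chromosome 1; points are group means, bars the range of the 4 arrays, grey bands low runs and the yellow band a high run. Most of the 16 low exon runs and 17 low junction runs lie in 2 broad parts of each ID range, while exon runs 8, 43 and 47 and junction run 9 lie outside them, and junction run 34, between them, is high at 0.218.

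The low exon runs formed 4 stretches of neighbouring runs, in 2 parts of the ID range. In the first part, runs 12 and 13 (ID numbers 17098 to 20321) differed by -0.143 and runs 15 to 17 (22024 to 26437) by -0.190. In the second part, runs 33 to 37 (ID numbers 49454 to 57342) differed by -0.189 and runs 39 and 40 (58791 to 61769) by -0.191. This stretch ends where the mean level of the rows falls, from 6.16 in run 40 to 4.82 in run 41. Single low runs were run 8 at -0.104, run 20 at -0.175, run 43 at -0.178 and run 47 at -0.195.

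Junction rows gave the same kind of profile along their own ID numbers. Of 48 junction runs of 704 or 705 rows, 17 were low and 1 was high, where 8.64% of 463 such runs over all chromosomes were low and 8.21% were high. Low stretches were runs 16 to 19 (ID numbers 11294 to 14135) at -0.179, runs 22 and 23 (15598 to 17041) at -0.163, runs 36 to 41 (25562 to 29816) at -0.183 and runs 43 to 45 (30534 to 39417) at -0.226. The 704 rows of run 45 go from ID number 31954 to 39417, so the last stretch crosses a gap in the numbering. The high run was run 34 (24147 to 24854), at 0.218, and it lies shortly before the second low part. Run 36, at -0.101, and run 20, at -0.088, were the runs just inside and just outside the limit. In both profiles most low runs fell in 2 separate parts of the ID range.

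The neighbouring runs were then gathered into spans, after the profile had been seen, so the spans carry no test. The 3529 exon probe sets at level 7 or more in runs 12 to 20 had a centred signal of -0.047, -0.093, -0.064 and -0.079 in shPLK1 and of 0.055, 0.073, 0.072 and 0.087 in shNS. Their difference was -0.142 (SE 0.012), or 9.41% lower on the linear scale. In runs 33 to 40, with 3212 probe sets, the shPLK1 arrays lay at -0.067, -0.105, -0.074 and -0.103 and the shNS arrays at 0.082, 0.084, 0.086 and 0.104. Here the difference was -0.176 (SE 0.011), or 11.5% lower. The groups do not overlap in either span, which the choice of the spans fixes.

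The exon spans before and between these differed less. Runs 1 to 11, which hold the low run 8 (-0.104), differed by -0.009 (SE 0.004). Their shPLK1 arrays went from -0.011 to 0.004 and their shNS arrays from -0.001 to 0.010. Runs 21 to 32 differed by -0.013 (SE 0.008), with shPLK1 arrays from -0.017 to 0.011 and shNS arrays from -0.007 to 0.014. In both of these spans the groups overlapped. Runs 41 to 48, the part with the lowest mean level (4.54), differed by -0.067 (SE 0.015) and hold the low runs 43 and 47. There the shPLK1 arrays, from -0.066 to 0.002, lay under the shNS arrays, from 0.015 to 0.044. The other chromosomes together differed by 0.008 (SE 0.001).

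**Figure D2:**
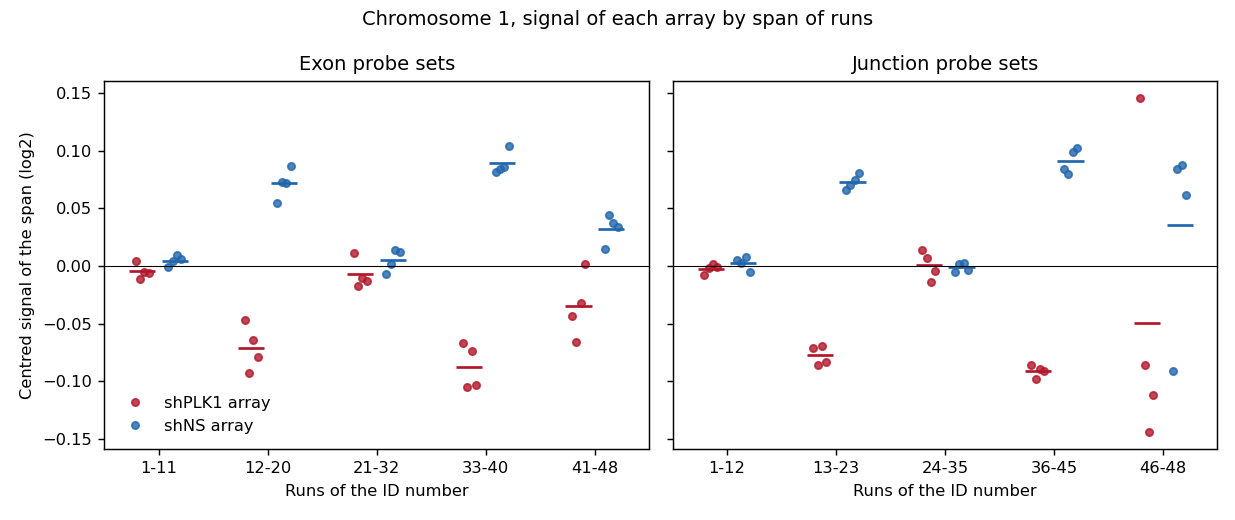
Centred log2 signal of each array (points) and group mean (lines) in 5 spans of runs of chromosome 1, for exon (left) and junction (right) probe sets. In exon runs 12-20 and 33-40 and junction runs 13-23 and 36-45 the arrays of the groups lie apart, with differences of -0.142, -0.176, -0.150 and -0.182.

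Junction spans were as large. Runs 13 to 23 differed by -0.150 (SE 0.005), with the shPLK1 arrays at -0.071, -0.086, -0.069 and -0.083 and the shNS arrays at 0.066, 0.070, 0.075 and 0.081. Runs 36 to 45 differed by -0.182 (SE 0.006), with the shPLK1 arrays at -0.086, -0.098, -0.089 and -0.091 and the shNS arrays at 0.084, 0.080, 0.099 and 0.102. Runs 1 to 12, before them, differed by -0.005 (SE 0.003) and runs 24 to 35, between them, by 0.001 (SE 0.006). The spans are not even within: runs 1 to 12 hold the low run 9 (-0.134) and runs 24 to 35 the high run 34 (0.218). Within runs 13 to 23, the groups overlapped in run 13 (-0.116) and run 21 (-0.131), and runs 15 (-0.081) and 20 (-0.088) were not low. Runs 36 to 45 hold run 42, at -0.022, where the groups overlapped, and run 45, which crosses the gap in the numbering. The lower spans of exons and of junctions thus differed by like amounts, -0.158 and -0.166 over both spans of each kind.

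Junction runs 46 to 48 stood apart from this pattern. Their centred signal was 0.146, -0.086, -0.144 and -0.112 in the shPLK1 arrays and -0.091, 0.084, 0.088 and 0.062 in the shNS arrays. Replicate 1 of each group thus lay on the side of the other group. This came from runs 46 and 48, as in run 47 replicate 1 was at -0.045 in shPLK1 and 0.039 in shNS. Replicate 1 was also turned in other runs, such as junction run 13 (0.042 and -0.038) and exon runs 11 (0.087 and -0.028) and 32 (0.031 and -0.041). Of the 879 rows at level 7 or more in junction runs 46 to 48, 496 repeat the values of an earlier junction row. Without repeated rows the shPLK1 arrays were at -0.008, -0.018, -0.019 and -0.025 and the shNS arrays at 0.005, 0.036, 0.041 and 0.040. Over the whole chromosome, 1.89% of exon rows and 3.85% of junction rows were such repeats, and leaving them out gave differences of -0.066 and -0.074.

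The lower spans were lower through many small differences. Over both exon spans together, 75.3% of the 6741 probe sets at level 7 or more had a lower mean in shPLK1, beside 52.6% of the 9768 in the spans before and between them (runs 1 to 11 and 21 to 32), 61.4% of the 1447 in runs 41 to 48 and 47.6% of those on other chromosomes. The middle difference was -0.16, the lower quartile was -0.32 and the lowest decile -0.48 on the log2 scale. More than 2-fold lower were 1.36% of these probe sets, and more than 2-fold higher were 0.282%. In the exon spans before and between, 0.399% were more than 2-fold lower and 0.870% more than 2-fold higher. In the lower junction spans, 73.8% of probe sets were lower in shPLK1, beside 50.2% in the junction spans before and between them (runs 1 to 12 and 24 to 35). In runs 46 to 48 it was 70.5%, but there 496 of the 879 rows repeat an earlier row and the groups overlapped, so that share counts values again.

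In the lower exon spans the difference was larger in each higher level bin up to a mean signal of 10. The low runs were called on rows at 7 or more, so the bins from 7 up hold the rows behind the choice of spans. The bins below 7 do not, so the step at 7 cannot be told apart from that choice. It was -0.026 (SE 0.003) below a log2 signal of 4, -0.067 (SE 0.005) from 5 to 6, -0.152 (SE 0.015) from 7 to 8 and -0.180 (SE 0.014) from 9 to 10. At a signal of 10 or more it was -0.134 (SE 0.003). The lower junction spans gave -0.026 (SE 0.004) below 4, -0.190 (SE 0.005) from 9 to 10 and -0.151 (SE 0.011) at 10 or more. In the spans before and between the lower ones, the level bins lay between -0.014 and -0.002 for exons and between -0.022 and 0.008 for junctions. Exon runs 41 to 48, after the lower spans, went from -0.006 (SE 0.005) below 4 to -0.117 (SE 0.027) at 10 or more. Junction runs 46 to 48 reached -0.107 (SE 0.127) from 9 to 10.

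**Figure D3:**
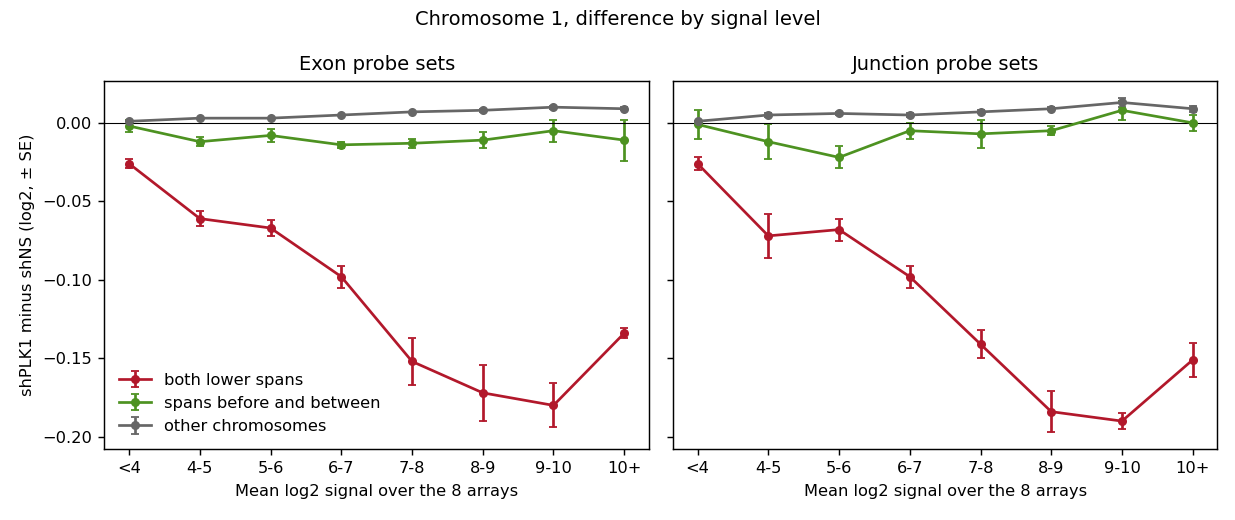
Difference of shPLK1 and shNS (log2, ± SE over 4 arrays each) by mean log2 signal, for exon (left) and junction (right) probe sets in both lower spans, in the spans before and between them (exon runs 1-11 and 21-32, junction runs 1-12 and 24-35) and on the other chromosomes. The lower exon spans go from -0.026 below a signal of 4 to -0.180 from 9 to 10, while the exon spans before and between lie from -0.014 to -0.002; exon runs 41-48 and junction runs 46-48 are not drawn.

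Within-group spread, which had no part in the choice of chromosome 1, was much the same in the lower spans and in those before and between them. Over exon probe sets at level 7 or more, the median SD of the 4 arrays was 0.165 in shPLK1 and 0.125 in shNS in the lower spans, and 0.166 and 0.127 in the spans before and between. In runs 41 to 48 it was 0.178 and 0.133. On the other chromosomes it was 0.165 and 0.130. The shPLK1 arrays thus varied more among themselves than the shNS arrays in every one of these sets. Single probe sets vary by about as much as the lower spans differ, so the stretches show in medians over many rows rather than in 1 row.

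Single probe sets were fitted with limma over all 573909 exon rows, with Benjamini-Hochberg adjustment and calls at an adjusted p under 0.05. On chromosome 1, 1701 exon probe sets (2.97%) were called lower in shPLK1, beside 2.20% of all exon probe sets, and 754 (1.32%) were called higher, beside 1.99% of all. Of the lower ones 1049 lie in the lower spans, 5.18% of the rows there, 470 in the spans before and between, 1.72% of the rows there, and 182 in runs 41 to 48, 1.91% of the rows there. Higher calls made up 1.14% of the rows in the lower spans 1.65% in the spans before and between and 0.745% in runs 41 to 48. Among junction rows, 361 (1.07%) were called lower, beside 1.01% of all 339146 junction rows, and 196 (0.580%) were called higher, beside 0.897% of all. As this contrast chose the chromosome, these counts are descriptions.

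The probe sets with the largest differences are given with their values. Among the 974 called exon probe sets with separate groups and a mean of at least 7 in both groups, the lowest was PSR01060479.hg.1, in run 40. It read 7.90, 7.38, 7.78 and 7.67 in shPLK1 and 10.67, 10.76, 10.72 and 10.95 in shNS, a difference of -3.09 (SE 0.14). Its neighbour PSR01060481.hg.1 read 7.57, 7.80, 7.92 and 7.66 against 10.77, 10.86, 10.67 and 10.56, a difference of -2.97 (SE 0.12). Within 20 ID numbers of the first, 7 of 33 other exon probe sets were called lower and 0 were called higher.

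The highest were PSR01045059.hg.1 and PSR01045062.hg.1, both in run 30, outside the lower spans. PSR01045059.hg.1 read 9.58, 9.40, 9.53 and 9.52 in shPLK1 and 7.37, 6.99, 6.64 and 7.49 in shNS, a difference of 2.39 (SE 0.18). PSR01045062.hg.1 read 10.16, 9.56, 9.72 and 9.77 against 7.55, 7.59, 7.32 and 7.55, a difference of 2.30 (SE 0.14). Around PSR01045059.hg.1, 28 of the 36 other exon probe sets within 20 ID numbers were called higher and 0 lower, with a median difference of 2.07. The files do not pair these IDs with genes. For each of the 4 probe sets the separation of the groups follows from the rule that picked them.

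Chromosomes 13, 15 and 18 were set beside chromosome 1 as other chromosomes with a shift between the groups, and the difference between the profiles was not tested. In runs of the same size, 10 of 10 exon runs of chromosome 13 were low, from -0.369 to -0.140. On chromosome 18, 6 of 6 exon runs were high, from 0.146 to 0.570. On chromosome 15, 6 of 16 exon runs were high and 0 were low, from -0.010 to 0.177. Chromosome 1, with 16 of 48 runs low and the rest neither low nor high, holds 16 of the 31 low exon runs of all chromosomes.

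Gene names on chromosome 1 come from 46 transcript clusters in the authors' deposited list, given there as 1 average log2 signal for each group without a spread. The averages headed 5d were taken as shPLK1, the only group of the series other than NS, and nothing in the labels or the Methods defines that heading. The list holds clusters past the authors' limits only, so its differences are those of selected clusters. The level limit of 7 used for probe sets was not applied to clusters. Both averages lay under 7 for PDE4B, CHRM3, HMCN1, AIM2, GBP2 and OR2M3, among others. Of the 46, 33 had a lower 5d average and 13 a higher one, with a median difference of -1.27, beside 306 lower and 185 higher of 491 over all chromosomes with a median of -1.12. The 34 clusters with a symbol name 28 genes or loci, of which 21 were lower and 7 higher, and no symbol had clusters of both signs.

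Among enzymes and signaling proteins, PTGS2 had the lowest difference, with averages of 4.51 in 5d and 8.0 in NS (-3.49). GNG4 had 6.09 and 8.29 (-2.20) in a coding cluster and 4.28 and 5.87 (-1.59) in a noncoding one. CHRM3, a muscarinic acetylcholine receptor, had 2.71 and 4.82 (-2.11) in 1 of its 2 noncoding clusters and a difference of -1.26 in the other. PDE4B, a phosphodiesterase that breaks down cAMP, had 4.30 and 5.34 (-1.04).

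Listed genes of the cytoskeleton, matrix and cell junctions had averages of either sign. AJAP1, a protein of adherens junctions, had a higher average, 8.20 in 5d and 7.18 in NS (1.02). NES had 5.73 in 5d and 7.68 in NS (-1.95). NID1, nidogen of the basement membrane, had 6.84 and 8.57 (-1.73), and HMCN1, the extracellular protein hemicentin, 3.34 and 4.82 (-1.48). S100A4, the 1 listed member of 16 S100-related genes looked for, had 5.54 and 7.04 (-1.50).

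Among regulators, PRRX1, a homeobox factor of mesenchymal cells, had 7.12 in 5d and 8.77 in NS (-1.65), and RUNX3, a runt-domain transcription factor, 5.72 and 7.33 (-1.61) in a noncoding cluster. Genes of innate immunity were AIM2, a sensor of cytosolic DNA, at 4.44 and 5.88 (-1.44), and GBP2, an interferon-induced GTPase, at 3.82 and 4.87 (-1.05). KIAA0040 had 7.11 and 9.56 (-2.45) in a noncoding and 6.52 and 8.46 (-1.94) in a coding cluster. The long noncoding RNAs LINC00622 and LINC01363 had differences of -2.28 and -1.55.

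Higher averages belonged to fewer genes. ARHGAP29 had 7.48 in 5d and 5.60 in NS (1.88) in a coding cluster and 7.21 and 5.25 (1.96) in a noncoding one. EPHA2 had 9.98 and 8.94 (1.04) and IL24 6.16 and 5.10 (1.06). KIAA1324, now named ELAPOR1 in RefSeq, had 7.83 and 6.77 (1.06) in a noncoding cluster. Of 46 chromosome 1 genes studied in melanoma or other tumours, 5 were in the list, with PTGS2, NES, PRRX1 and GBP2 lower and EPHA2 higher, beside 33 lower and 13 higher among all 46 listed clusters. The share of all chromosome 1 genes that the list holds was not computed, so nothing is read from these counts or from that of the S100 genes.

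Cluster numbers ran along the chromosome several times. Of the 28 symbols 25 matched a chromosome 1 gene in RefSeq of GRCh38.p14, and only their order was used. Sorted by cluster number, the genes went from AJAP1 to OR2M3 (7 coding clusters, with plus strand for the 5 whose strand was known), then from EPHA2 to NID1 (13 coding clusters, minus strand for the 12 known). The noncoding clusters followed in the same way, 3 on the plus strand from KIAA1324 to CHRM3 and 6 on the minus strand from RUNX3 to GNG4, and GBP2 came last. Among these 30 matched clusters the gene order thus started over 4 times, the last time with GBP2 alone. Whether exon and junction ID numbers follow these passes is not given in the sources used here, so the low runs were not assigned to a place on the chromosome.

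The listed genes were divided at NOTCH2, which lies on the short arm near the centromere, and most were lower on both sides. Of the 15 matched genes that follow it, and so belong to the long arm, 13 had lower averages and 2, IL24 and OR2M3, had higher ones. Of the 10 that precede it, 6 had lower averages and 4, AJAP1, EPHA2, ARHGAP29 and KIAA1324, had higher ones. With each gene counted by its first-numbered cluster, the median difference was -1.50 after NOTCH2 and -1.05 before it. All listed chromosome 1 differences are 1.01 or more in size. A set with most genes lower thus has a median past that size, so these medians do not measure a shift of either arm. These genes were selected for large changes and their division was made after the values were seen, so it was not tested.

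**Figure D4:**
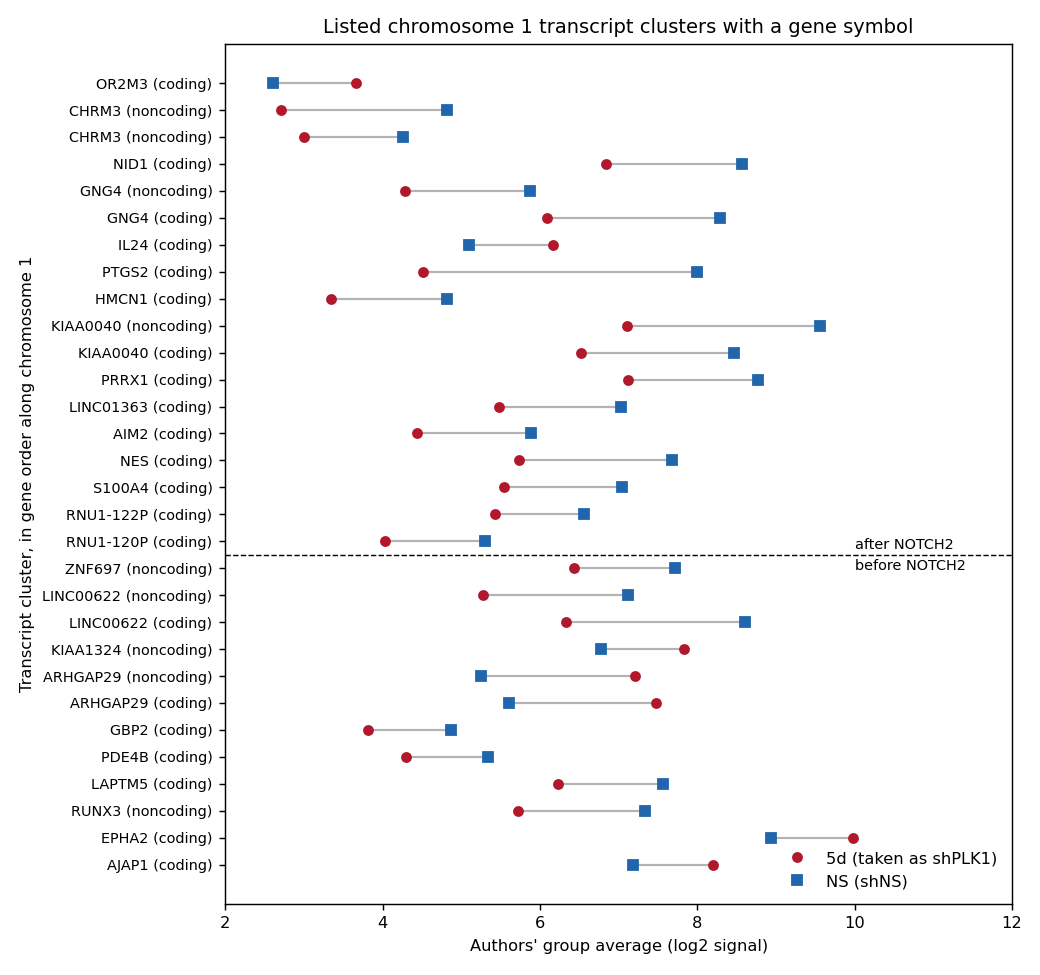
Authors' group averages (log2 signal) in 5d (red circles) and NS (blue squares) for the 30 listed chromosome 1 clusters whose symbol matched RefSeq, in gene order along the chromosome from bottom to top; the dashed line marks NOTCH2. PTGS2 spans the widest gap, from 8.0 in NS to 4.51 in 5d, and ARHGAP29 the widest in the other direction.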

How the data were processed

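RNA of 4 A375 shPLK1 and 4 A375 shNS arrays was compared, with groups and replicate numbers from the sample labels. Per the Methods and the submitters' processing notes, the scans were handled in Affymetrix's Transcriptome Analysis Console with RMA, a method of background correction, quantile normalization and probe summary. The deposited values are log2 signals from 0.47 to 14.33, and the precision is limited by the number of arrays. The second deposited table gives, for each group, the authors' bi-weight average (log2), and its columns of folds, p-values and FDR-adjusted p-values, which hold the authors' own comparison, were not used. The genome build of the probe sets is not given in the sources used here.

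Chromosome and order were read from the IDs. Per array, deviations of each row from its 8-array mean were summarised by the median over rows with a mean of at least 7 and centred on the same median over 24 chromosomes (Python 3.11.15, numpy 2.4.6, pandas 2.3.3, matplotlib 3.10.9). An SE is that of the difference of 2 group means over arrays. All exon rows and, apart, all junction rows were modelled by group alone in limma (3.58.1), under R 4.3.3, with Benjamini-Hochberg adjustment. Both steps were tested on simulated data with 200 changed probe sets and with shifted runs. The simulated run shift was larger than that of any exon run of chromosome 1, with noise independent between rows. Finding shifts of the size seen here was therefore not tested. The spread behind a p-value is that between the arrays of 1 cell line per group, which may be technical. PLK1 was not checked on these arrays, nor were cell type markers, as their probe sets were not identified here. Gene names in the authors' list were read for chromosome 1 only, so neither was looked up there. The chromosome, lists and limits were chosen with earlier results of these data known. Named genes are the up to 12 lowest and 8 highest symbols of the averages and members of the gene lists, and named probe sets the 2 lowest and 2 highest of the rule given above; other genes named were chosen after their values were seen. Alternatives changed the level limit, number of runs, summary, centring, repeated rows, arrays, filter and threshold. Spans of runs and the division at NOTCH2 were added after the data were seen.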

Additional observations from a re-analysis of the deposited data

Results flagged for a closer look

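In 32 groups of 4 arrays, 1 array stood far from the other 3 in 2 cases, and chance gives about 1 in 20 groups. In junction runs 46 to 48, shNS replicate 1 had a centred signal of -0.091, while the other shNS arrays lay between 0.062 and 0.088. In these runs 496 of 879 rows at level 7 or more repeat an earlier row, and without repeats the same array was at 0.005. In PSR01045062.hg.1, shNS replicate 3 read 7.32, while the others read 7.55 to 7.59, and the difference between the groups there was 2.30.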

How the results depend on the processing

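The chromosome 1 shift was negative for exons and junctions under every alternative run. Over all levels it was -0.042 for exons and -0.053 for junctions, and low runs made up 18.8% of exon and 16.7% of junction runs, beside 33.3% and 35.4%. Whether same-numbered arrays were made as pairs was not established. Over exon rows their deviations had correlations of -0.145 to 0.042, beside -0.199 to 0.163 for arrays with different numbers. With a replicate block the exon shift was -0.067. Lower exon calls were then 1088 of 57185 on chromosome 1, beside 9161 of all 573909. Of 33818 junction rows on chromosome 1, 173 were called lower and 76 higher, beside 1829 and 1288 of all 339146. The share of lower junction calls was thus smaller on chromosome 1 than over all junction rows. With a change of more than 2-fold and p under 0.05 before adjustment, exon calls on chromosome 1 were 640 lower and 314 higher. Over all exon rows they were 6020 and 4691. Junction calls were 557 and 321, beside 5172 and 4670 over all junction rows. At an unadjusted p under 0.01, exon calls were 3098 and 1333, beside 20883 and 19317 over all. Junction calls were then 1051 and 549, beside 8337 and 7845. With exons and junctions in 1 fit, junction calls on chromosome 1 were 611 lower and 311 higher, beside 5020 and 4578 over all junction rows. Among junctions at or above the median level, 554 of 17481 on chromosome 1 were lower, beside 4175 of all 169573. Leaving out each array in turn gave exon shifts of -0.071 to -0.062, junction shifts of -0.084 to -0.069, 31.2% to 35.4% low exon runs and 33.3% to 39.6% low junction runs. It gave 1216 to 1478 lower and 524 to 633 higher exon calls, and 224 to 297 lower and 122 to 171 higher junction calls. Over all exon rows the calls were 9800 to 11198 lower and 8140 to 9614 higher. Over all junction rows they were 2392 to 2925 and 1826 to 2513. The share of lower junction calls on chromosome 1 was above that of all junction rows only without shPLK1 replicate 1 or 3, and under it without any other array. Lower junction calls on chromosome 1 went from 361 to 236 without shPLK1 replicate 2 and 234 without shPLK1 replicate 4. They went to 237 without shNS replicate 1 and 224 without shNS replicate 3. Over all junction rows the lower calls went from 3440 to 2490, 2505, 2460 and 2392 in these fits. Higher junction calls on chromosome 1 went from 196 to 124 without shPLK1 replicate 2, 123 without shPLK1 replicate 3 and 122 without either shNS replicate 1 or 3. Over all junction rows the higher calls went from 3041 to 1964, 1836, 1891 and 1826 in these fits. The cause of these changes was not tested, except that leaving out an array leaves fewer arrays in the fit.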

Other observations

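Some listed clusters belong to families whose copies resemble each other, so their probe sets may read several loci. RNU1-120P and RNU1-122P, copies of the U1 small nuclear RNA named RNVU1-22 and RNVU1-21 in RefSeq, had averages of 4.03 in 5d and 5.30 in NS (-1.27) and of 5.43 and 6.56 (-1.13). LOC643454, a pseudogene of an adaptor protein subunit, had 8.07 and 6.81 (1.26) in a coding and 6.45 and 5.44 (1.01) in a noncoding cluster. OR2M3, an olfactory receptor, had 3.66 and 2.61 (1.05). The 12 clusters without a symbol held 8 lower and 4 higher averages, with a median difference of -1.19. Of genes named only here or by their range above, LAPTM5, a lysosomal membrane protein, had 6.23 and 7.56 (-1.33), and ZNF697, a zinc finger protein, 6.43 and 7.71 (-1.28) in a noncoding cluster. RP11-316I3.2 and RP11-398M15.1 had differences of -1.90 and -1.28.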
